A study of Mus musculus with 24 samples.

Results

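Gas5 and the small nucleolar RNA host genes (Snhg) are long noncoding RNAs (lncRNAs) that carry small nucleolar RNAs (snoRNAs) in their introns. They were read here in 5 mouse tissues and 3 mouse cell lines. The members were the lncRNA probes that the study's supplementary tables of detected and tissue-specific lncRNAs name Gas5 or with a symbol starting with Snhg, as far as those tables are held here. There were 12 such probes among the 60804 transcript probes of the array, and they belong to 4 genes. Gas5 had 9 probes, and Snhg1, Snhg6 and Snhg11 had 1 each.

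The tissues came from untreated male ICR mice, an outbred strain, at 8 weeks of age and were testis, liver, kidney, heart and brain. The lines were F9, GC-1 and GC-2. Each of these 8 groups had 3 biological replicates, so there were 24 arrays. F9 is an embryonal carcinoma line, grown here without retinoic acid. GC-1 was immortalized at a stage from type B spermatogonium to primary spermatocyte, and GC-2 resembles a spermatocyte. Each line stands for 1 established culture, not for a cell population sorted from the testis, and the whole testis holds many germ cell stages beside Sertoli and Leydig cells. Total RNA was hybridized to Arraystar mouse lncRNA V3.0 arrays in 1 colour, and a level below is the log2 processed intensity minus the 75th percentile of that array, so that a level of 0 is the array's 75th percentile.

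How the probes came to be named bears on what follows. The tables of detected lncRNAs were held only in part. The brain part, with 1543 probes, runs from high to low by brain replicate 1 and stops at a level of 3.88, and the F9 part, with 1397 probes, runs from high to low by F9 replicate 1 and stops at 4.93. Of the 10 members in these tables, 8 were in both parts, the Gas5 probe for ENSMUST00000159890 only in the brain part and Snhg1 only in the F9 part. These 10 were therefore bright in brain or in F9 by choice, and their differences from testis in brain and in F9 are a description. Beside each count stands the share of the other probes in the same parts. The other 2 members, a Gas5 probe from the testis-specific table and the Snhg11 probe from the brain-specific table, were chosen by a tissue difference and are only described. The study lists that Gas5 probe among testis-specific lncRNAs found in the cell lines, so detection in a line was also part of its choice. Snhg genes outside these rows were read only where the list of other snoRNA hosts, described last, holds them.

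The host transcripts work as carriers. Introns cut from them are processed to snoRNAs of the box C/D or H/ACA class, which guide the methylation or pseudouridylation of ribosomal RNA. Many snoRNA hosts are protein-coding genes of translation, whereas the spliced exons of Gas5 and Snhg1 are not known to hold a conserved protein. Gas5 was found as a transcript that accumulates in growth-arrested cells. Like the mRNAs of ribosomal proteins, Gas5 and Snhg1 start at a pyrimidine tract, a 5′ terminal oligopyrimidine sequence, and their spliced RNAs are held to be cleared by nonsense-mediated decay while ribosomes are active. The Gas5 RNA has also been described as a decoy for the glucocorticoid receptor.

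The start of transcription is the feature that ties Gas5 and Snhg1 to that class, so the reference sequence around it is shown for both. The windows run from 50 bases before the start to 20 bases from it on the plus strand of GRCm38.p6, taken from RefSeq. A TATA element and the pyrimidine run at or near the start are in capitals. The Gas5 run holds the annotated start, and the Snhg1 run begins a few bases after it.
Gas5, chr1:161035116-161035185: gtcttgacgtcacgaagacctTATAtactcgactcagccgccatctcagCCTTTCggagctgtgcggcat
Snhg1, chr19:8723437-8723506: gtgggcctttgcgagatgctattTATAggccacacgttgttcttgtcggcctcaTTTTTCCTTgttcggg
The search was for TATA on the gene's strand between 45 and 16 bases before the start, and for a run of C and T within 5 bases of it. TATA was present in 6.72% of 32851 RefSeq promoters, a run of 5 or more in 32.9%, a run of 8 or more in 9.72%, and TATA with a run of 5 or more in 2.24%. The second RefSeq start of Gas5 and the start of Snhg11 had neither. Snhg6 had no entry.

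The Gas5 gene lies on chromosome 1 from 161034601 to 161038539 of GRCm38.p6, opposite Zbtb37, and holds 8 annotated snoRNA genes. Its probes are 60 bases long, several overlap, and most of those with a sequence span more of the genome than their own length. The probe sequences are shown because the differences between Gas5 probes below can be read only against what the probes share. Bases in capitals lie in a stretch of 12 or more that another Gas5 probe also holds.
uc007det.1: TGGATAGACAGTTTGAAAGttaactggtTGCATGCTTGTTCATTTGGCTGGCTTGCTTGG
ENSMUST00000161380: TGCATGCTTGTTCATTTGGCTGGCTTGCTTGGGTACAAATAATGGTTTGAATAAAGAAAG
ENSMUST00000160429: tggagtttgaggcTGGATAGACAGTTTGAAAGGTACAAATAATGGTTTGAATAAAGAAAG
ENSMUST00000159663: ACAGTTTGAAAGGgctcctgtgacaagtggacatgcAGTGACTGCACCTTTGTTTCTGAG
ENSMUST00000159890: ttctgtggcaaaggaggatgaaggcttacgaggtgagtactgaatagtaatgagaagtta
The probes for uc007det.1 and ENSMUST00000161380 share 32 bases, those for ENSMUST00000161380 and ENSMUST00000160429 share 29, and those for ENSMUST00000159663 and ENSMUST00000160551 share 24. Probes of 1 gene are not independent, and cross-hybridization between these Gas5 isoforms cannot be told apart from the isoforms themselves. The probe for ENSMUST00000159890 shares no such stretch. It lies at 161035983 to 161036050, and its end is 7 bases from an annotated snoRNA gene. The probe for ENSMUST00000159663 spans 1383 bases of genome with 3 snoRNA genes between its ends, Snord47 among them.

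Snhg1 lies on chromosome 19 from 8723487 to 8726326, opposite Slc3a2, with 8 snoRNA genes, and its probe spans 204 bases with 1 of them between its ends. Snhg6 lies on the minus strand of chromosome 1 from 9942025 to 9944118 with 1 snoRNA gene, and Snhg11 on chromosome 2 from 158375713 to 158386474 with 2. The probes of the first 2 genes are shown because each was the only one read for its gene, and neither shares a stretch with another member.
Snhg1: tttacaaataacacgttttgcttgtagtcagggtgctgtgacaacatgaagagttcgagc
Snhg6: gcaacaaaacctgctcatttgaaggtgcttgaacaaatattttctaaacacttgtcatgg

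Facts of all arrays that touch these results are few. Testis arrays had 34999 to 37393 probes well above background and a 75th percentile intensity of 305 to 384, while the other arrays had 18257 to 33692 probes and at most 154. This scaling therefore lowers a testis level against the other groups, and its effect is given beside the first result. Liver arrays had the lowest 75th percentile intensity, 30.7 to 49.8, so the same scaling raises a liver level. The first slide held replicate 1 of all 8 groups. The second held the remaining arrays of testis, liver, kidney and brain, and the last one those of heart and the lines, so heart and the lines share only the first slide with testis. Of 35 marker genes, 11 could be identified. Snap25, Gap43 and Mobp were well above background on all 3 brain arrays at 1.65, 7.31 and 5.81, Nrap in heart at 5.53 and Mup-ps18 in liver at 11.96. Gap43 was also well above background on all arrays of the 3 lines, at 5.16 in F9, and on 2 heart arrays. Kcnmb4os1 and 1700027A15Rik were at 7.52 and 8.38 in testis, and Zfp42 at 4.65 in F9. Markers could be identified only through the study's tables of bright or tissue-specific transcripts. The high level of a tissue marker in its own tissue is therefore no check of the samples. No kidney marker could be identified, and the 3 germ cell markers identified, Stra8, Kcnmb4os1 and 1700027A15Rik, were not well above background on any GC-1 or GC-2 array. Stra8 was at 0.10 in testis and at 1.25 in F9, well above background on all 3 arrays of each.

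All 10 members read from the tables of detected lncRNAs were well above background on all 24 arrays, and testis had the lowest mean of the 5 tissues for each of them, as it had for 63.4% of all probes. The Gas5 probe for ENSMUST00000161380, the transcript that the study used as a ubiquitous control, can stand for the gene. Its level was 3.92, 4.24 and 4.22 in testis, replicates 1 to 3. It was 6.04, 6.0 and 5.67 in brain, 5.61, 6.29 and 5.35 in heart, and 6.40, 6.37 and 6.78 in kidney. In liver it was 7.32, 7.52 and 6.93. Every testis array was thus below every array of the other 4 tissues. The difference from testis was 1.77 in brain (SE 0.27), 1.62 in heart, 2.39 in kidney and 3.13 in liver, or 3.42-fold and 8.73-fold for brain and liver. The brain difference is a description, since the probe was bright in brain by choice. The adjusted p by limma was 7.05e-05 for heart, 1.99e-06 for kidney and 5.7e-08 for liver, and it measures the spread between these 3 arrays per group. In whole tissue, fewer cells of a type that holds the RNA and less RNA per cell cannot be told apart.

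**Figure D1:**
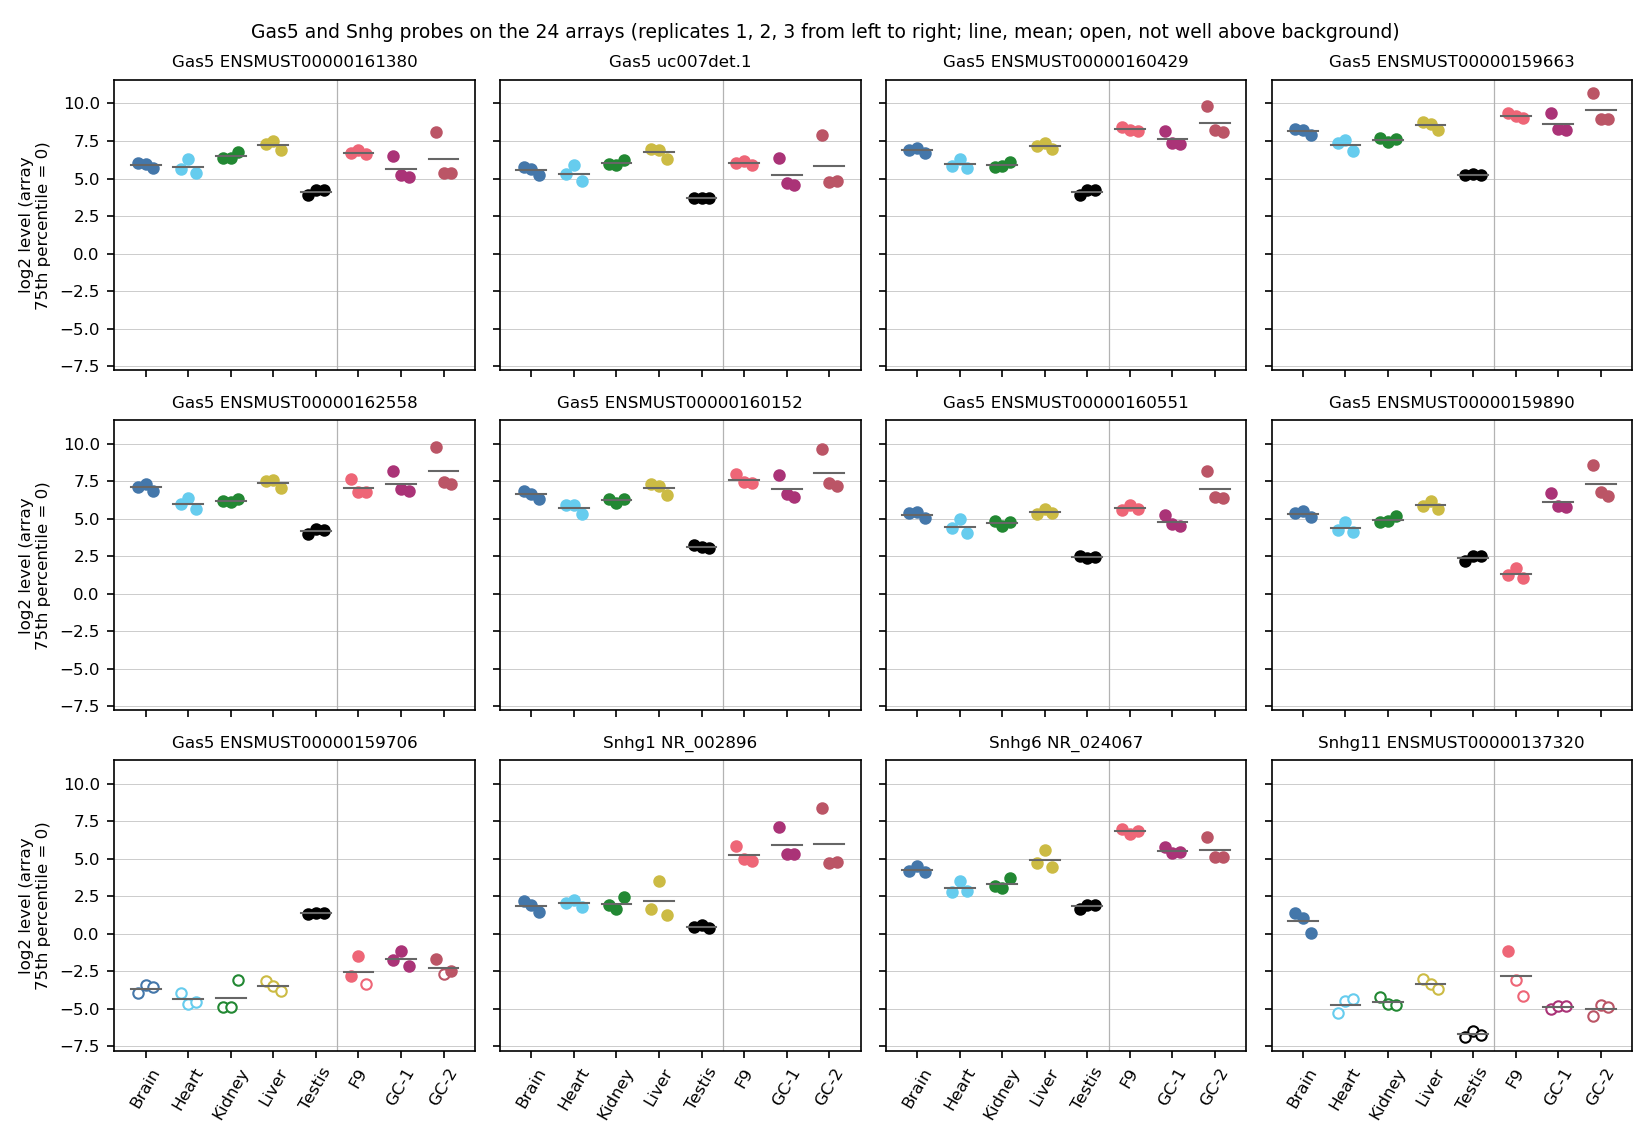
Log2 level (array 75th percentile at 0) of the 12 probes on the 24 arrays, with replicates 1 to 3 from left to right in each group, a line at the group mean and open points where a spot was not well above background. Testis is the lowest tissue in the 10 panels where all points are filled, the GC-2 replicate 1 point is high in these panels, and the probe for ENSMUST00000159890 is the one whose F9 points lie below testis.

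The widest difference from testis among the tissues was that of the Gas5 probe for ENSMUST00000160152, whose span of 1303 bases near the 5′ end of the gene has 1 snoRNA gene between its ends. Its level was 3.26, 3.12 and 3.05 in testis, and 7.33, 7.17 and 6.58 in liver. Brain was at 6.84, 6.67 and 6.31. The groups did not overlap, and the difference was 3.89 in liver (14.8-fold, limma adjusted p = 5.68e-09) and 3.47 in brain. At the other end, Snhg1 differed least from testis in liver. Its levels were 0.48, 0.56 and 0.36 in testis, 2.16, 1.92 and 1.46 in brain, and 1.68, 3.53 and 1.26 in liver, where replicate 2 stood apart. The Snhg1 difference from testis was 1.38 in brain (SE 0.45, adjusted p = 0.0125) and 1.69 in liver (adjusted p = 0.00279). Snhg6 was at 1.68, 1.94 and 1.90 in testis, 2.78, 3.54 and 2.83 in heart, and 4.69, 5.56 and 4.46 in liver. The Snhg6 difference was 1.21 in heart (adjusted p = 0.00252) and 3.06 in liver (adjusted p = 3.23e-07). The heart call of Snhg6 was lost with slide as a block (1.08, adjusted p = 0.056), and so was that of Snhg1 (adjusted p = 0.0648). The brain call of Snhg1 was lost with all 24 arrays in the fit (adjusted p = 0.0846) and without slide 1 (1.23, adjusted p = 0.117).

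The remaining Gas5 probes had the same low testis mean with little spread there. For uc007det.1 the mean was 3.69 ± 0.022 (SD, n = 3) in testis and 5.31 in heart to 6.74 in liver among the other tissues. For ENSMUST00000159663 it was 5.26 ± 0.041 in testis and 7.26 in heart to 8.55 in liver. For ENSMUST00000160429 it was 4.13 in testis and 5.90 in kidney to 7.16 in liver. ENSMUST00000162558 and ENSMUST00000160551 had testis means of 4.18 and 2.46, and their liver means were 7.39 and 5.44. ENSMUST00000159890, read beside a snoRNA gene, was at 2.38 in testis and 4.36 in heart to 5.88 in liver. Over the 10 members the difference from testis ran from 1.38 to 3.47 in brain, 1.21 to 2.55 in heart, 1.47 to 3.07 in kidney and 1.69 to 3.89 in liver.

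By limma, all 10 members were higher than testis in brain, where 54.8% of all probes were, and the same held in heart (63.6%), kidney (61.5%) and liver (66.5%). Among the other probes named in the brain part, 78.5% were higher in brain, 81.3% in heart, 83.3% in kidney and 79.7% in liver, and in the F9 part 68.7%, 78.2%, 82.0% and 79.8%. A count of 10 of 10 is thus close to what bright probes as a whole showed. The sizes were the following. The members' median difference was 2.78 in brain, beside a median of 1.41 over the other probes of the brain part. It was 1.82 in heart beside 1.61, 2.28 in kidney beside 1.79, and 3.09 in liver beside 1.87. Testis arrays lay below all 12 arrays of the other tissues for 10 of 10 members, 45.7% of all probes, 69.6% of the other probes of the brain part and 66.9% of those of the F9 part.

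The scale of the arrays has a part in these counts. Taking the 75th percentile over the 13551 probes detected on all arrays instead, the members higher than testis were 9 for brain, 6 for heart, 7 for kidney and 9 for liver, with medians of 2.09, 0.80, 1.05 and 1.77. Under that scaling 49.6%, 58.0%, 42.0% and 60.7% of all calls in these comparisons were higher than testis, against 72.9%, 77.0%, 76.1% and 78.7% under the main scaling. Snhg1 then passed the test in no tissue, with differences of 0.37 in liver, 0.31 in kidney, 0.54 in heart and 0.69 in brain. Snhg6 lost the calls in heart (0.18, adjusted p = 0.638) and kidney (0.23, adjusted p = 0.56). ENSMUST00000161380 (0.60, adjusted p = 0.0926) and uc007det.1 (0.60, adjusted p = 0.104) lost that in heart, and ENSMUST00000160429 that in kidney (0.53, adjusted p = 0.0837). Testis had the lowest tissue mean for all 10 members under each scaling, background correction and source of values tried. Before any scaling, the intensity of the probe for ENSMUST00000161380 was 5779 to 6312 in testis, 7461 to 10140 in brain, 6398 to 8583 in kidney, 4943 to 7952 in liver and 2592 to 5723 in heart, so the unscaled testis arrays were above all heart arrays and within the range of liver. Within each slide that held testis, all 10 members were higher than testis in each tissue.

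**Figure D2:**
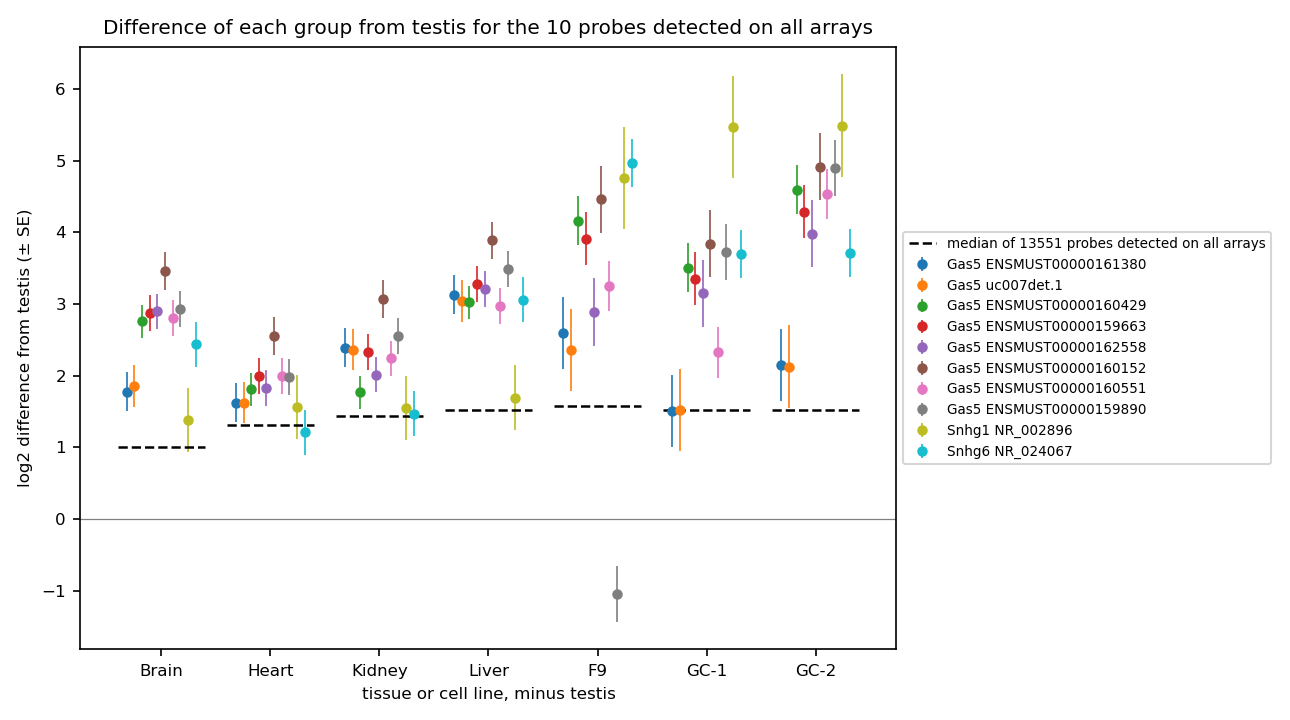
Log2 difference of each tissue and cell line from testis for the 10 probes detected on all arrays, with the standard error of the limma fit, and dashed lines at the median of 13551 detected probes. The points lie above 0 apart from the F9 point of the probe for ENSMUST00000159890 at -1.04, and Snhg1 has the smallest values in brain and liver and the largest in both GC lines.

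Above testis, most members ranked the tissues alike, but few neighbours in the order differed. For 6 members the order was liver, brain, kidney, heart and testis. For uc007det.1 and ENSMUST00000161380, the Gas5 probes that share 32 bases, kidney came before brain. For ENSMUST00000160429, heart came before kidney, and for Snhg1 the order was liver, heart, kidney, brain and testis. Above the step from testis, liver was over kidney for ENSMUST00000161380 (0.74, limma adjusted p = 0.0293). Brain was over kidney for ENSMUST00000162558 (0.88) and Snhg6 (0.97), and over heart for ENSMUST00000160429 (0.95). No other neighbours there passed the threshold. The steps from brain are a description, since these probes were bright in brain by choice. The 4 tissue means of Snhg1 above testis lay between 1.85 and 2.16, and no neighbours among them differed. Liver had the highest tissue mean for all 10 members under the 75th percentile of all probes, but for 2 under the scaling on detected probes, under quantile normalization and under normexp background correction, where brain was highest for 8, 7 and 8. Under the 50th percentile of all probes it was still highest for 9. The place of liver above brain therefore rests on the scaling and the background correction.

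Between the other tissues, 7 of 10 members were higher in brain than in heart, where 14.3% of all probes were, 18.8% of the other probes in the brain part and 8.65% of those in the F9 part. The members' median difference was 0.89, beside -0.31 over the other probes of the brain part. Since most members were chosen for brain, this too is a description. Comparisons that used neither brain nor F9 were those of heart, kidney and liver. There 9 of 10 members were lower in heart than in liver (48.2% of all probes, 28.6% and 27.8% of the other probes in the brain and F9 parts). Likewise 8 of 10 were lower in kidney than in liver (48.3% of all probes, 18.2% and 16.6% in those parts), and none differed between heart and kidney (24.7% in either direction). The step from kidney to liver varied with the processing. The members' median difference from testis was 3.09 in liver and 2.28 in kidney under the main scaling. It was 1.93 and 1.74 under normexp, and 1.77 and 1.05 with scaling on detected probes. Under the 50th percentile kidney was the highest tissue for 1 member. Brain was higher than kidney for 3 members (15.4%), and lower than liver for 2 (56.0%).

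Because a ratio within an array does not depend on a single factor by which the array is scaled, each probe was also set against ENSMUST00000161380 on the same array. Of the 9 other members, the 7 Gas5 probes then showed how far the Gas5 gene moved as 1 unit. Snhg1 and Snhg6 were set against the same probe. Against brain, 6 Gas5 probes had a lower ratio in testis by limma (10.8% of all probes were lower, 20.0% and 10.1% of the other probes in the brain and F9 parts). The differences of testis from brain were -1.69 for ENSMUST00000160152, -1.16 for ENSMUST00000159890, -1.13 for ENSMUST00000162558, -1.10 for ENSMUST00000159663, -1.03 for ENSMUST00000160551 and -0.99 for ENSMUST00000160429. The exception among the Gas5 probes was uc007det.1, with -0.08, whose mean ratio stayed between -0.35 and -0.67 in all 8 groups. On these arrays the ratios of the Gas5 probes differed unequally between brain and testis. Since these probes were bright in brain by choice, this is a description. Leaving out the arrays of slide 1 reduced the 6 calls to 2, and fitting all 24 arrays to 1.

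Against heart, kidney and liver, few ratios differed. The ratio of ENSMUST00000160152 was lower in testis than in heart (-0.93, adjusted p = 0.0239, 12.1% of all probes lower). That of Snhg6 was higher in testis than in kidney (0.92, adjusted p = 0.0188, 46.5% higher), and that of Snhg1 was higher in testis than in liver (1.43, adjusted p = 0.00416, 51.2% higher). Each of these 3 calls was lost without slide 1 and with all 24 arrays in the fit.

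**Figure D3:**
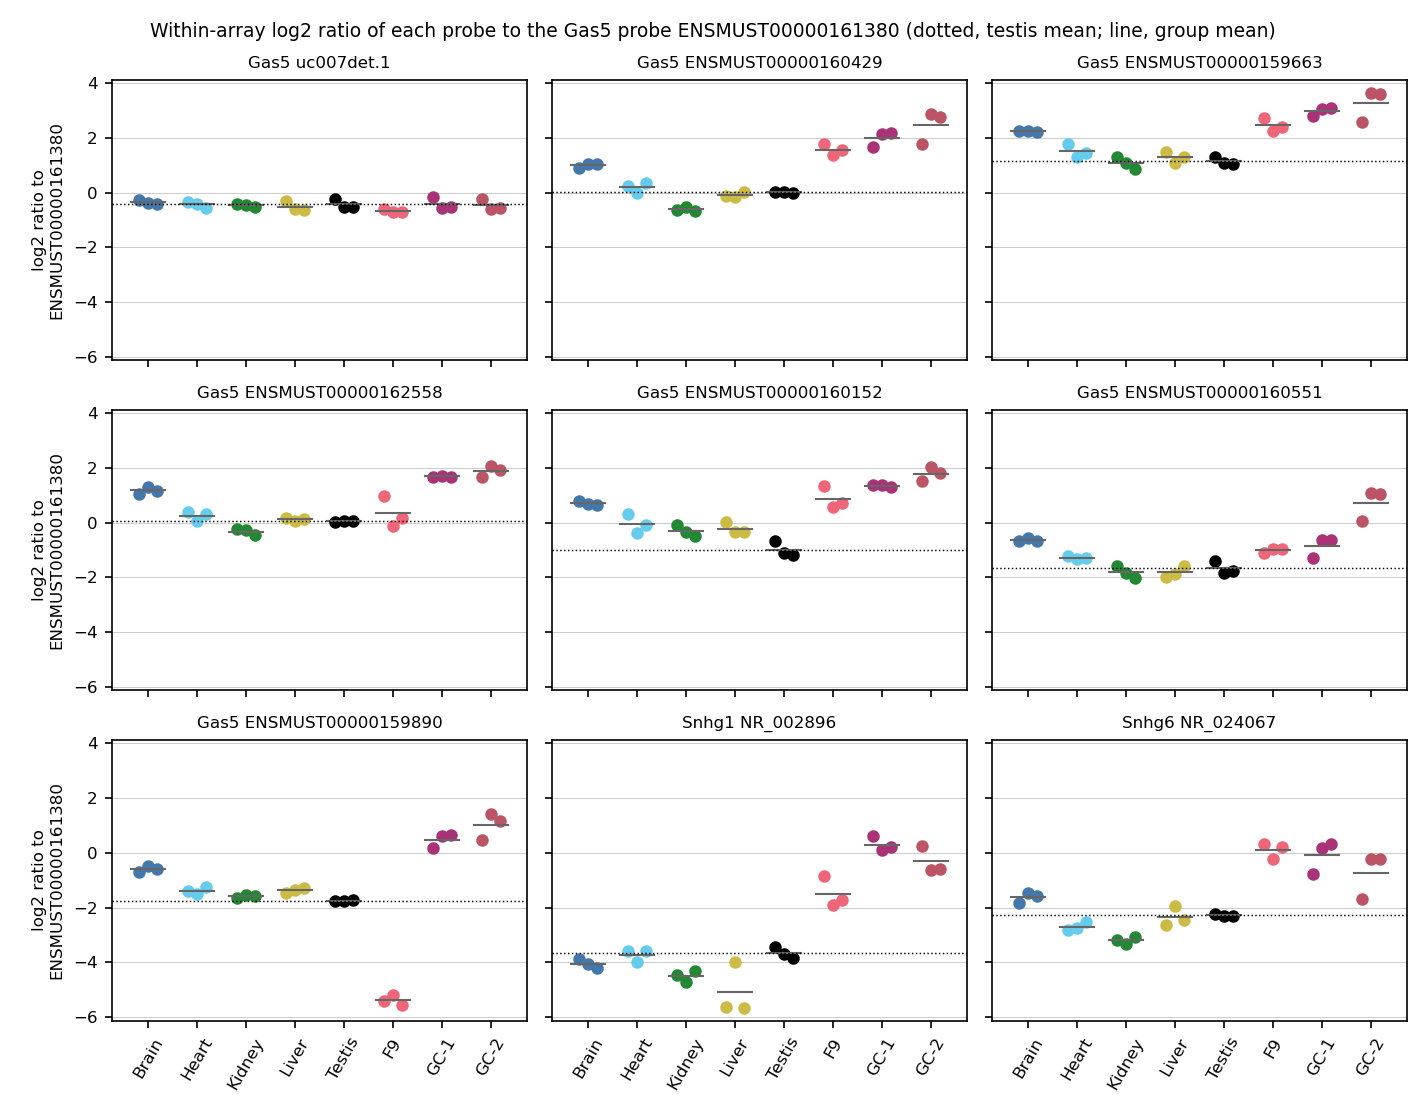
Within-array log2 ratio of the other 9 members to the Gas5 probe for ENSMUST00000161380 in the 8 groups, with each array as a point, the group mean as a line and the testis mean dotted. The panel of uc007det.1 is flat, between -0.35 and -0.67 at the group means, that of ENSMUST00000159890 falls in F9, and those of Snhg1 and Snhg6 rise in the cell lines.

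In the germ cell-related lines, most members were above whole testis. The probe for ENSMUST00000161380 was at 6.67, 6.89 and 6.61 in F9, 6.53, 5.25 and 5.13 in GC-1, and 8.10, 5.35 and 5.38 in GC-2. Its arrays did not overlap with those of testis, and replicate 1 of both GC lines was high. All line arrays were above all testis arrays for 9 of 10 members (53.6% of all probes, 79.9% and 89.2% of the other probes in the brain and F9 parts). By limma, 9 members were higher in F9 than in testis and 1 was lower (63.6% of all probes were higher and 18.5% lower). In both GC lines all 10 were higher (62.0% of all probes for GC-1 and 60.8% for GC-2). The other probes in the brain and F9 parts were higher in 83.6% and 90.6% of cases in GC-1 and in 81.9% and 89.0% in GC-2, so these counts too were near those of bright probes. The members' median difference was 3.43 in GC-1, beside 2.04 and 2.43 over the other probes of the 2 parts, and 4.41 in GC-2, beside 1.94 and 2.36. With the scaling on detected probes, 8 members were higher in GC-2, 7 in GC-1 and 7 in F9. ENSMUST00000161380 was among those that lost the call in each line, at 1.003 in F9 (adjusted p = 0.102), 0.032 in GC-1 (adjusted p = 0.963) and 0.61 in GC-2 (adjusted p = 0.373). The overlapping uc007det.1 lost it in each line too, at 0.77, 0.048 and 0.59, and ENSMUST00000160551 in GC-1 (0.85, adjusted p = 0.0521).

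Snhg1 was the member with the largest difference from testis in both GC lines. It was at 5.82, 4.97 and 4.88 in F9, 7.12, 5.34 and 5.35 in GC-1, and 8.36, 4.72 and 4.79 in GC-2. No tissue array was above 3.53. It was the 1 member for which all 9 line arrays lay above all 15 tissue arrays, as did 4.63% of all probes and 31.5% of the other probes in the F9 part, from which it was read. The difference from testis was 5.47 in GC-1 (44.4-fold, limma adjusted p = 8.2e-07) and 5.49 in GC-2 (44.96-fold, adjusted p = 7.73e-07). In F9, where it was chosen for brightness, it was 4.76, and 4.46 without F9 replicate 1. F9 was above liver, the next group in the order, by 3.06, which rests on the same choice. No pair of the 3 lines passed the threshold for Snhg1. The SE was 0.71, with replicate 1 high in both GC lines, so equal levels are not shown. Without replicate 1 of the line, the Snhg1 difference was 4.88 in GC-1 and 4.29 in GC-2. Relative to ENSMUST00000161380 on the same array, Snhg1 rose over testis by 3.96 in GC-1 (adjusted p = 3.58e-07) and by 3.34 in GC-2 (adjusted p = 1.02e-05).

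Snhg6 was highest in F9, at 6.99, 6.64 and 6.82. F9 was above GC-1 by 1.28 (13.0% of all probes higher) and above GC-2 by 1.26 (13.8% higher). Since the probe was bright in F9 by choice, this is a description. GC-1 was at 5.77, 5.41 and 5.44, and GC-2 at 6.42, 5.11 and 5.13, so that F9 did not overlap with either line. The Snhg6 difference from testis was 4.97 in F9 (31.4-fold), 3.70 in GC-1 (limma adjusted p = 3.06e-09) and 3.71 in GC-2 (adjusted p = 2.82e-09). Snhg6 was the 1 member whose mean was highest in F9 of all 8 groups. GC-2 had the highest mean for 7 members and liver for 2. Without the arrays of slide 1 F9 was highest for 4, GC-2 for 3, liver for 2 and GC-1 for 1.

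The Gas5 probe for ENSMUST00000159890 went its own way in F9. It was at 2.17, 2.49 and 2.49 in testis, 1.25, 1.71 and 1.06 in F9, 6.69, 5.87 and 5.77 in GC-1, and 8.58, 6.76 and 6.52 in GC-2. All F9 arrays were below all testis arrays, and all arrays of both GC lines were above them. The difference of F9 from testis was -1.04 (SE 0.39, limma adjusted p = 0.0184), and that of F9 from GC-1 was -4.77 (27.3-fold, adjusted p = 3.93e-09, 11.2% of all probes lower). From GC-2 it was -5.95 (61.7-fold, adjusted p = 1.15e-10, 10.6% of all probes lower). The probe was read only in the brain part, so a low F9 level was no bar to it, while a member read in the F9 part could not have been low there. The step from testis to F9 was lost with slide as a block (-0.54, adjusted p = 0.265), in a fit of the 12 arrays of testis and the lines (adjusted p = 0.0548) and without F9 replicate 3 (-0.90, adjusted p = 0.0675), whereas the difference from both GC lines held in these settings.

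This probe followed the rest of the gene in the tissues. Over the 5 tissue means its r with the other 7 Gas5 probes detected on all arrays was 0.947 to 0.998, with a median of 0.988. Over the 8 group means r fell to 0.29 to 0.62, with a median of 0.44, while the 21 pairs of the other Gas5 probes had a median of 0.93. These values share arrays and bases between probes and are a description. Relative to ENSMUST00000161380, the ratio of ENSMUST00000159890 was lower in F9 than in testis by 3.64 on the log2 scale (-3.64, adjusted p = 7.91e-07, 37.3% of all probes lower), and higher in GC-1 (2.22, adjusted p = 0.0024) and GC-2 (2.76, adjusted p = 0.000131).

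The other ratios in the lines were as follows. In F9, ratios were higher than in testis for 4 of 9 members (3.66% of all probes, 12.4% and 20.9% of the other probes in the brain and F9 parts), ENSMUST00000160429 at 1.57, ENSMUST00000160152 at 1.87, Snhg1 at 2.16 and Snhg6 at 2.38. In GC-1 they were higher for 7 of 9 (8.17%, and 22.6% and 30.0% in the parts). In GC-2 they were higher for 8 of 9 (4.77%, and 10.5% and 14.5% in the parts), all but uc007det.1. The median ratio difference was 2.00 for GC-1 and 2.39 for GC-2, so the reference probe and uc007det.1, which overlaps it, were the Gas5 probes least raised in the GC lines. Without replicate 1 of the line the counts were 8 in GC-2, 7 in GC-1 and 2 in F9.

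Between the lines few members differed. F9 and GC-1 differed for Snhg6 and ENSMUST00000159890. F9 was lower than GC-2 for ENSMUST00000159890 and ENSMUST00000160551. The difference of ENSMUST00000160551 was -1.28 (adjusted p = 0.00942), and -0.70 without GC-2 replicate 1 (adjusted p = 0.0766), where the call was lost. GC-1 was lower than GC-2 for 2 members (5.17% of all probes), and higher for none (6.02%). They were ENSMUST00000160551, at -2.21 (adjusted p = 0.000117) and -1.63 without GC-2 replicate 1 (adjusted p = 0.000265), and ENSMUST00000160429, at -1.09 (adjusted p = 0.0417). The second call was lost without GC-2 replicate 1 (-0.53, adjusted p = 0.287) and in several other settings. Without that array, ENSMUST00000159890 in F9 was still below GC-2 (-5.30) and Snhg6 above it (1.69).

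Replicate 1 of GC-2 and of GC-1 stood apart for these genes. In GC-2, replicate 1 was above the mean of replicates 2 and 3 by a median of 2.13 over the 10 members, with a range of 1.30 to 3.60, and by over 1 for all 10. Among the 13551 probes detected on all arrays 7.28% were over 1 and 0.952% were above 2.13. Of the other probes in the brain and F9 parts that were detected on all arrays, 1.90% and 2.88% were over 1. In GC-1 the median was 1.19, with a range of 0.34 to 1.78, and 6 of 10 were over 1 (2.52% of detected probes). In the other 6 groups the medians lay between -0.15 and 0.24. Slide 1 held replicate 1 of every group, the other 6 included. Of 27 detected probes of other snoRNA hosts, 5 were over 1 in GC-2, the highest at 2.88, and 1 in GC-1, with a median of 0.04 in GC-2. Of 53 probes of translation genes none was over 1 in either line, with a median of -0.11 in GC-2. What set these arrays apart was not tested. Without replicate 1 of the line, 8 members were called in GC-1, where uc007det.1 (0.95, adjusted p = 0.147) and ENSMUST00000161380 (1.06, adjusted p = 0.0751) lost the call, and 10 in GC-2, with medians of 3.11 and 3.84.

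**Figure D4:**
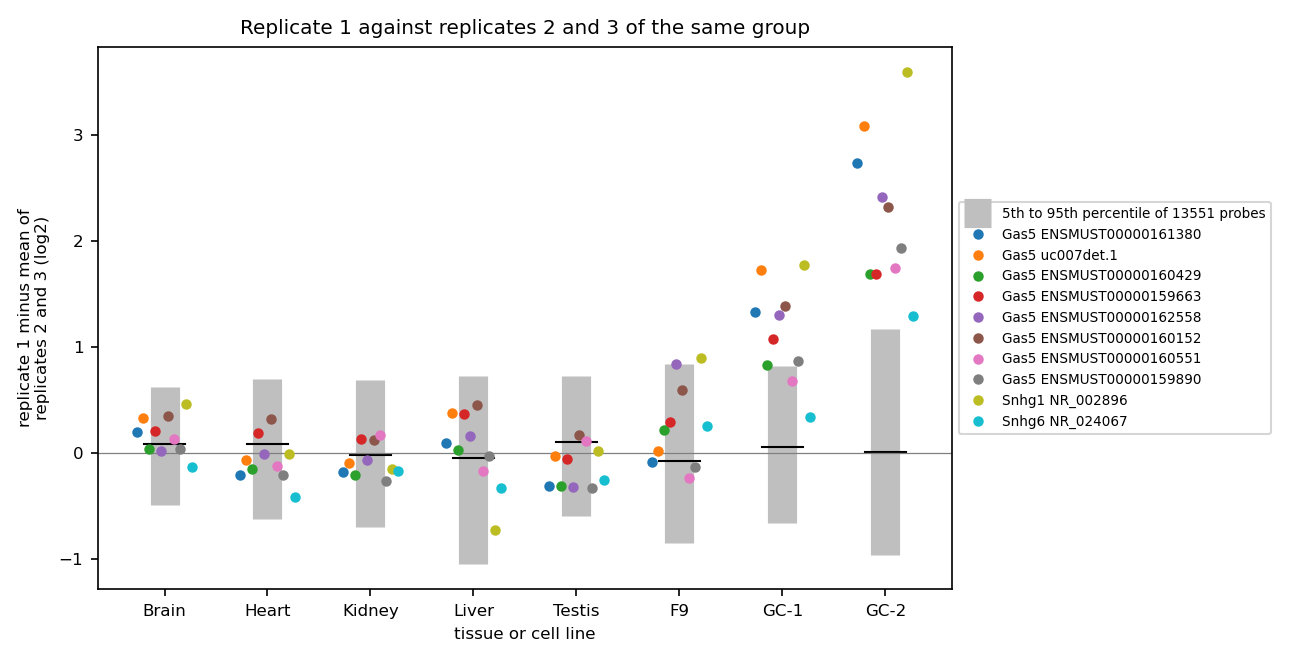
Replicate 1 minus the mean of replicates 2 and 3 of the same group (log2) for the 10 probes detected on all arrays, with a grey bar from the 5th to the 95th percentile of 13551 probes and a black line at their median. The GC-2 points lie between 1.30 and 3.60 and the GC-1 points between 0.34 and 1.78, while the medians of the other groups are between -0.15 and 0.24.

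The 2 members from the tables of tissue-specific lncRNAs had another pattern, which is the one they were chosen for. The Gas5 probe for ENSMUST00000159706 was at 1.34, 1.39 and 1.38 in testis and was not well above background on any array of brain, heart, kidney or liver. Testis was at least 28.9-fold higher than brain, 16.8-fold than heart, 16.9-fold than kidney and 6.32-fold than liver, where the bound is set by the lowest signal well above background on each array. It was well above background on all 3 GC-1 arrays, at -1.71, -1.13 and -2.17, on 2 F9 arrays and on 2 GC-2 arrays. Detection in a line was part of its choice, so this too is a description. So 1 Gas5 probe of 9 was highest in testis while 8 were lowest there among tissues.

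Snhg11, whose transcript is known from neurons, was at 1.38, 1.07 and 0.040 in brain. Outside brain it was well above background on 1 array, F9 replicate 1, at -1.17. Brain was at least 44.3-fold higher than testis, 11.6-fold than heart and kidney and 4.35-fold than liver, and at least 13.0-fold higher than GC-1 and 14.1-fold than GC-2. No sequence was held for the probes of these 2 members.

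Genes near these in function were read from lists, mostly in the same bright parts (31 of 40 and 53 of 56 probes). The rest were named among the study's tissue-specific transcripts, so their tissue pattern was set by that choice. Of 40 probes of other snoRNA hosts, 31 were higher than testis in liver, 25 in kidney, 26 in heart and 28 in brain, and 30 in GC-2, 31 in GC-1 and 35 in F9, while 3 to 6 were lower. Of all probes, 66.5% were higher in liver, 61.5% in kidney, 63.6% in heart and 54.8% in brain. For the lines the shares were 60.8% in GC-2, 62.0% in GC-1 and 63.6% in F9. The median difference was 1.498 in brain and 2.24 in liver, beside 1.06 and 1.96 over all probes, and 3.49 in F9, beside 1.63. A probe of Snhg20, which is named 2810008D09Rik on the array and has more than 1 probe in the list, was at 3.05 in brain, -0.14 in testis and 6.13 in GC-1. Some hosts went the other way: Snhg3 (ENSMUST00000155816) was at 1.45 in testis and between -2.46 and -5.01 elsewhere, and Gm17300 was above the other tissues by 4.82 in testis. Snhg3 was named only among the study's testis-specific lncRNAs, so its pattern is the one it was chosen for. A Meg3 probe, from several in the list, and that of Snhg14, an imprinted host named D7Ertd715e on the array, were highest in brain among the tissues, at 4.44 and 2.30.

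Of 56 probes of translation genes, most of them named as noncoding isoforms or pseudogenes of ribosomal proteins, 50 were higher than testis in liver, 52 in kidney, 50 in heart and 41 in brain, and 55 in each GC line and 54 in F9. The shares over all probes are those given for the other hosts, and shares of the bright parts are given above. The median was 1.07 in brain and 1.84 in liver, beside 1.06 and 1.96 over all probes, so these 2 medians were near those of all probes. For the lines it was 3.66 in F9, beside 1.63, 2.76 for GC-1, beside 1.43, and 2.86 for GC-2, beside 1.35. Rpl10-ps4 was at 6.61 in testis and 11.42 in F9, and Rpsa-ps5 and Rpsa-ps11 were below the other tissues in testis by 2.44 and 2.43 on the log2 scale (-2.44 and -2.43). An Rpl24 probe was above them by 3.43, but it was named among the study's tissue-specific mRNAs, so its direction was set by that choice. A pseudogene probe may also read the parent mRNA, so these values are uncertain as to the gene. No probe of the 14 genes listed for snoRNP assembly and nonsense-mediated decay could be identified.

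By likeness of the 8 group means, the named probes closest to each member were mostly not listed snoRNA hosts. Listed hosts were few among the candidates, 27 detected on all arrays beside 1420 detected probes of the brain part alone. The low number of hosts is therefore no result about the members. Over 8 means, Snhg1 was closest to AK191694 (Pearson r = 0.987), Gm15550 (0.983) and Gm12217 (0.978), and Snhg6 to Gm8087 (0.974), XLOC_012315 (0.973) and 2410004N09Rik (0.970). Of these, 2410004N09Rik is in the list of other snoRNA hosts. ENSMUST00000161380 was closest to Gm20109 (0.961), Usf2 (0.960) and AK137790 (0.959), and uc007det.1 to Sned1 (0.965), Gm20109 and Usf2 (0.964 each). ENSMUST00000159663 (0.969), ENSMUST00000162558 (0.953), ENSMUST00000160152 (0.977) and ENSMUST00000160551 (0.946) had AK051369 among the closest 3. For ENSMUST00000160429 the closest was Gm6097 (0.955). ENSMUST00000159890 had the weakest matches, AK009640 (0.936), S100a16 (0.893) and AK217252 (0.834). These r values come from 8 means on the same arrays and were drawn from the probes that could be named.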

How the data were processed

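The authors labeled total RNA with Cy3, hybridized it to Arraystar mouse lncRNA V3.0 arrays and quantified the scans with Agilent Feature Extraction 11.5.1.1. The deposited files hold the intensity of 62243 spots per array, background subtracted and detrended but not normalized between arrays, with flags per spot. The deposited matrix holds the same processed intensity (largest relative difference 0.000228). The fold changes, levels and p-values in the authors' supplementary tables were not used. The tables gave names, positions on GRCm38 and probe sequences, and the order of their rows was set against the levels.

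For 60804 transcript probes, the level was log2 of the processed signal less log2 of the array's 75th percentile. Tissue pairs were fitted on 15 arrays and pairs with a line on 24, with limma 3.58.1 (lmFit and eBayes) in R 4.3.3, p-values adjusted by Benjamini-Hochberg within each pair over all probes and a threshold of 0.05. The ratio fit subtracted the probe for ENSMUST00000161380 on each array first. A probe was detected where the scanner flag calls it well above background, and no member spot was saturated. A group not well above background on any array has only a bound. The fit was tested on simulated data for 60804 probes with 200 changed by 3 on the log2 scale, of which 89.0% were recovered with 14 false calls. Tables and figures were made with Python 3.11.15, numpy 2.4.6, pandas 2.3.3 and matplotlib 3.10.9.

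The members and the lists were chosen with earlier results of these data known. Named were all members, up to 4 probes of each list with the largest difference of testis from the other tissues, and the 3 named probes closest to each member in the 8 group means; Snhg20 was named after its values were seen. Lists of other snoRNA hosts took transcripts whose span holds a RefSeq snoRNA gene, on either strand, as the table used gives none. Alternatives were scaling on the 50th percentile, on detected probes and by quantiles, normexp with an offset of 50, a filter on dim probes, slide and replicate blocks, other sets of arrays, the methods' t-test and leaving out each array. Normexp used the median signal, since the mean signal is not in the files. The label and the methods name different RNA kits.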

Additional observations from a re-analysis of the deposited data

Results flagged for a closer look

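For the Gas5 probe for ENSMUST00000159890 the lines moved in opposite directions from testis, with every F9 array below and every GC-1 and GC-2 array above the testis arrays. The difference from testis was -1.044 for F9, 3.725 for GC-1 and 4.903 for GC-2, and the direct limma tests of F9 against GC-1 (-4.77) and GC-2 (-5.95) passed the threshold. The cause was not tested.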

How the results depend on the processing

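Of 564 counts recomputed under the alternatives, 529 stayed within 1.5 times the main count, and of 2335 single differences 2282 kept their direction and side of the threshold, 53 lost the call and none reversed. Scaling on probes detected on all arrays left 6 members higher in heart than in testis, 23 translation probes in liver and 17 other hosts in GC-2. Quantile normalization left 17 other hosts and 24 translation probes higher in liver. Liver was the highest tissue for 2 members under each of detected-probe scaling, quantile normalization and normexp. Ratio calls moved most. Between testis and brain 1 remained with all 24 arrays and 2 without slide 1, an alternative added after seeing the data. With heart they were 3 under quantile normalization and 0 with slide as a block, with all 24 arrays and without slide 1. With kidney they were 2 under normexp and 0 with all 24 arrays and without slide 1. With liver they were 2 under quantile normalization and with the filter on dim probes, and 0 with all 24 arrays and without slide 1. Leaving out 1 array at a time, the ratio calls ranged from 6 to 7 in brain, 0 to 1 in heart, 0 to 3 in kidney, 1 to 2 in liver, 3 to 6 in F9, 5 to 7 in GC-1 and 7 to 8 in GC-2. The members higher than testis stayed at 10 in each tissue and in GC-2 and at 9 in F9, and ranged from 8 to 10 in GC-1. Over 84 pairs of same-numbered samples, the deviations from the group means correlated from -0.26 to 0.55, median 0.17, with 58 over 0.1 and all 3 over 0.1 in 10 of 28 pairs of groups, 4 of them with testis. Replicate 1 of all groups also shared a slide. The replicate block moved counts over all probes by a ratio of 1.0 to 1.01 and no member count. The methods' t-test called 10, 10, 10 and 9 members higher in brain, heart, kidney and liver, and 9, 9 and 8 in the lines. With 3 arrays per group, dim signals are limited by the background.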
